A study of Homo sapiens with 3 samples.

Results

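Enzymes of the pentose phosphate pathway, and 2 cytosolic dehydrogenases that also make NADPH, were examined in QBC-939 cells, a line of human bile duct cancer (cholangiocarcinoma). The 8 genes are PGLS, PGD, RPIA, RPE, TKT, TALDO1, ME1 and IDH1, out of 30923 genes in the table. They were selected on gene name with measured differences between these libraries already known. Their differences are therefore given as a description of the libraries, with no test. The groups were cells overexpressing miR-182-5p, cells overexpressing miR-183-5p, and control cells labelled NC. All share the genotype label WT, and each group is 1 RNA sequencing library. The titles of both microRNA libraries carry the ending "mim", and the microRNA levels themselves were not analysed here. No difference below has a replicate check, and intervals in parentheses are 95% intervals for counting error alone.

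The pentose phosphate pathway branches from glycolysis at glucose 6-phosphate. Its oxidative branch makes NADPH and ribulose 5-phosphate, and its non-oxidative branch interconverts sugar phosphates, giving ribose 5-phosphate for nucleotides or returning carbon to glycolysis. NADPH drives lipid and sterol synthesis and keeps glutathione and thioredoxin reduced. Cytosolic malic enzyme and isocitrate dehydrogenase make NADPH from malate and isocitrate. Several of these genes are known to be activated by NRF2 (encoded by NFE2L2), a transcription factor of the oxidant response that binds antioxidant response elements.

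The sequences below show what a direct microRNA contact in these transcripts would look like. They are the mature microRNAs from RefSeq (GRCh38.p14), from chr7:129770447-129770470 and chr7:129774967-129774988 on the minus strand, with the seed (bases 2 to 8) in capitals. The seeds carry the same base at 5 of their 7 positions.
miR-182-5p: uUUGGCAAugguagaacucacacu
miR-183-5p: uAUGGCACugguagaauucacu

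The complement of each seed was searched in the longest annotated 3' UTR of each gene (GENCODE 29, GRCh38), which ranged in length from 207 to 2468 nucleotides. The miR-182-5p site, TTGCCAA, was found in 1 of the 8 genes, TKT. The miR-183-5p site, GTGCCAT, was found in RPIA and RPE, and the other 5 genes held neither. Among 10823 measured genes with a 3' UTR, 15.1% held the miR-182-5p site and 12.2% the miR-183-5p site. A match is a description of the sequence and not evidence of binding. The stretches are shown with the site in capitals, because TKT and RPIA are among the genes described below as lower. TALDO1 and PGD, also described below as lower, held neither site. RPIA, with the miR-183-5p site alone, was at 0.644 times the NC level with miR-182-5p and 0.779 with miR-183-5p. Whether the sites have a part in any difference was not tested. The TKT site is on the minus strand at chr3:53225079-53225085, the RPIA site on the plus strand at chr2:88750924-88750930, and the RPE site on the plus strand at chr2:210021381-210021387. The RPIA site starts at nucleotide 846 of a 3' UTR of 857 nucleotides. The deposited coordinates of RPIA end at chr2:88750929, inside the site.
TKT: tttctgggtcTTGCCAAtggggcctgg
RPIA: aaacagtgtgGTGCCATtttga
RPE: ggaaagctttGTGCCATgaatacgtcg

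Library totals were 61709874 counts with miR-182-5p, 67427313 with miR-183-5p and 64516706 with NC. Of these, 16.7%, 16.1% and 13.5% in that order fell on mitochondrially encoded genes, and a larger share lowers the library-scaled counts (CPM) of every nuclear gene alike. Epithelial genes were abundant, with an NC level of 81.6 FPKM for the biliary keratin KRT19 and 170.7 FPKM for EPCAM, whereas the biliary keratin KRT7 was at 1.03 FPKM. Of the 7 epithelial markers, the keratins KRT18 (0.773 times the NC CPM with miR-182-5p and 0.890 with miR-183-5p) and KRT8 (0.810 and 0.877) had the lowest miR-182-5p ratios, and KRT7 (1.24 and 1.39) and the cadherin CDH1 (1.10 and 0.985) the highest. KRT18 and KRT8 overlap each other on opposite strands, and the use of strand in the counting is not given. FPKM are fragment counts per kilobase of gene length, scaled to the library size. Of the hepatocyte, fibroblast, immune and endothelial markers, HNF4A, COL1A1 and CD68 reached an FPKM of 1 in any library, and CD68 overlaps other genes. The defining immune marker PTPRC had 9, 0 and 0 counts in the same order, and the hepatocyte marker ALB had 0, 9 and 5. Summed marker levels were 5.53, 4.94 and 5.79 FPKM for hepatocytes, 2.53, 1.76 and 1.63 for fibroblasts, 1.09, 0.615 and 1.47 for immune cells and 0.233, 0.162 and 0.126 for endothelium in that order. Their part in the results was not tested. In bulk RNA, fewer cells of a kind and less RNA per cell cannot be told apart.

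All 8 genes were expressed in every library, at widely different levels. In the NC library the deposited FPKM ran from 5.92 for PGLS to 62.1 for TALDO1, so that PGLS lay above 52.6% and TALDO1 above 96.6% of the genes with an FPKM of at least 1. Transaldolase (TALDO1), transketolase (TKT, 53.1 FPKM), isocitrate dehydrogenase (IDH1, 50.3 FPKM) and phosphogluconate dehydrogenase (PGD, 44.8 FPKM) formed a high group. The epimerase RPE (17.7 FPKM), the isomerase RPIA (13.7 FPKM), malic enzyme (ME1, 8.53 FPKM) and the lactonase PGLS formed a low one. Transketolase alone held 41.9% of the counts of the 8 genes in the NC library.

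This order rests on gene lengths. The deposited FPKM of 7 of the genes correspond to a length 1.163 to 1.204 times the union of all annotated exons, and that of PGD to 1.35 times. The union counts retained introns, so that TKT has 9507 bases against 3010 in its principal coding transcript. Expressed as CPM per kilobase of the principal transcript, NC levels were 201.5 for TKT, 161.3 for TALDO1, 116.4 for IDH1 and 95.1 for PGD. RPE followed at 29.2, PGLS at 19.7, RPIA at 16.2 and ME1 at 10.2 CPM per kilobase. The high and the low group were thus the same on both scales, while TKT and PGLS took higher places on the second. Differences between libraries for 1 gene do not depend on its length.

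**Figure D1:**
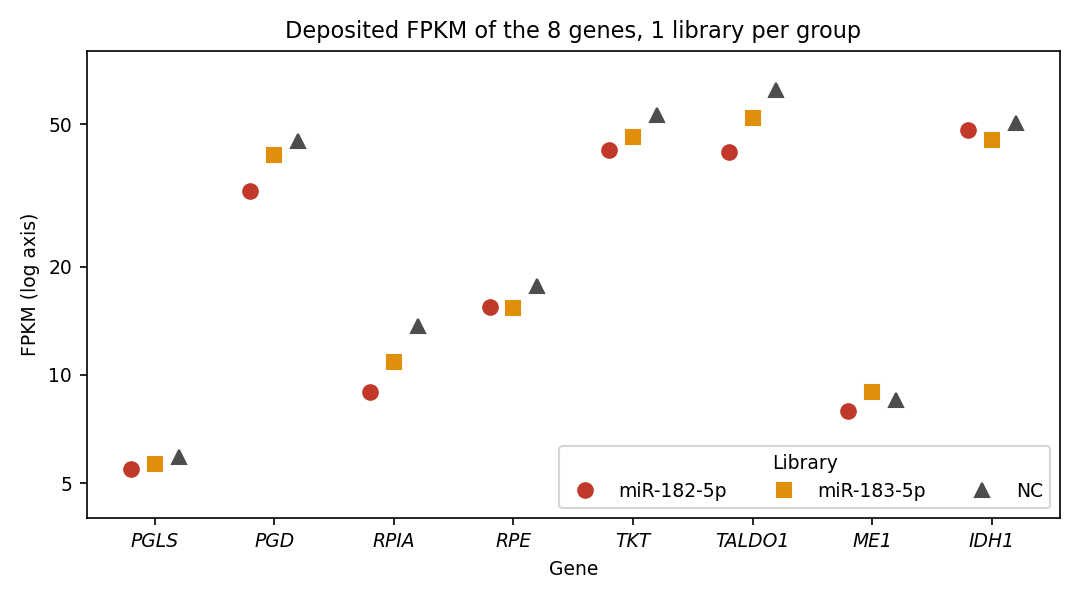
FPKM (log axis) of the 8 genes in the miR-182-5p library (circles), the miR-183-5p library (squares) and the NC library (triangles). Each point is 1 library, and PGLS, PGD, RPIA, TKT and TALDO1 are lowest with miR-182-5p and highest with NC, while IDH1 is lowest and ME1 highest with miR-183-5p.

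In the oxidative branch, PGLS, the 6-phosphogluconolactonase, had 5.47 FPKM with miR-182-5p, 5.65 with miR-183-5p and 5.92 with NC. These levels were close: the CPM ratio to NC was 0.910 (0.840 to 0.986) for miR-182-5p and 0.940 (0.870 to 1.02) for miR-183-5p. PGLS (chr19:17511636-17521043) had the fewest counts of the 8, with 1138, 1284 and 1307 in the same library order. It overlaps AC010618 on the opposite strand, which had 139, 214 and 147 counts, and the use of strand in the counting is not given.

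PGD (chr1:10398592-10419808) encodes 6-phosphogluconate dehydrogenase, which makes NADPH and ribulose 5-phosphate. It had 32.5 FPKM with miR-182-5p, 41.0 with miR-183-5p and 44.8 with NC. The miR-182-5p library was the low one, with a CPM ratio of 0.717 to NC (0.697 to 0.738). The miR-183-5p library lay nearer to NC, at 0.902 times its level (0.878 to 0.926). Summed, PGLS and PGD had 147.0 CPM with miR-182-5p, 180.7 with miR-183-5p and 199.6 with NC.

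In the non-oxidative branch, RPIA (chr2:88691673-88750929) encodes the isomerase that turns ribulose 5-phosphate into ribose 5-phosphate. It had 8.95 FPKM with miR-182-5p, 10.8 with miR-183-5p and 13.7 with NC. Its ratio to NC was the lowest of the 8 genes for both microRNAs, at 0.644 for miR-182-5p (0.598 to 0.692) and 0.779 for miR-183-5p (0.729 to 0.834). RPIA overlaps no other gene in the table.

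RPE (chr2:210002565-210022259) encodes the epimerase that turns ribulose 5-phosphate into xylulose 5-phosphate. It had 15.4 FPKM in each microRNA library and 17.7 in the NC library, and its ratios to NC were 0.861 for miR-182-5p (0.825 to 0.898) and 0.857 for miR-183-5p (0.822 to 0.893). Between the microRNA libraries, miR-182-5p over miR-183-5p, its ratio was 1.01 (0.963 to 1.05). RPE overlaps KANSL1L on the opposite strand, which had 2483 counts with miR-182-5p, 2018 with miR-183-5p and 1694 with NC, that is, in the opposite direction. Whether the counting used strand is not given in the sources used here, so the RPE values are uncertain. The related genes RPEL1 (25, 31 and 38 counts) and RPEP4 (0, 1 and 12 counts, both in the same library order) had few counts beside the 3984, 4331 and 4838 of RPE.

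TKT (chr3:53224712-53256052) encodes transketolase, which moves 2-carbon units between sugar phosphates. It had 42.4 FPKM with miR-182-5p, 45.9 with miR-183-5p and 53.1 with NC. Both microRNA libraries were below NC, at 0.788 times its CPM for miR-182-5p (0.776 to 0.800) and 0.852 for miR-183-5p (0.840 to 0.865). Transketolase is the gene with the miR-182-5p site shown above, and with 29480, 34855 and 39131 counts it has the narrowest counting intervals of the 8.

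TALDO1 (chr11:747415-765012) encodes transaldolase, which moves 3-carbon units. It had 41.8 FPKM with miR-182-5p, 52.1 with miR-183-5p and 62.1 with NC. The ratio to NC was 0.663 for miR-182-5p (0.646 to 0.681) and 0.827 for miR-183-5p (0.807 to 0.847), and the second interval reaches to both sides of 0.833, the limit used below. By FPKM, TALDO1 stood below IDH1 and TKT with miR-182-5p, but was the highest of the 8 genes with miR-183-5p and with NC. Together the 4 non-oxidative genes had 705.6 CPM with miR-182-5p, 784.0 with miR-183-5p and 928.5 with NC.

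The NADP-linked dehydrogenases outside the pathway had the ratios nearest to NC in the miR-182-5p library, though PGLS of the pathway, at 0.910, was close. ME1 (chr6:83210402-83431051), cytosolic malic enzyme, had 7.95 FPKM with miR-182-5p, 8.94 with miR-183-5p and 8.53 with NC. It is the only 1 of the 8 genes with a ratio above 1 to NC, at 1.03 in the miR-183-5p library with an interval that includes 1 (0.975 to 1.10). In the miR-182-5p library its ratio was 0.919 (0.864 to 0.977).

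IDH1 (chr2:208236229-208266074), the cytosolic and peroxisomal NADP-dependent isocitrate dehydrogenase, had 48.2 FPKM with miR-182-5p, 45.0 with miR-183-5p and 50.3 with NC. The miR-183-5p library was the lowest, whereas PGLS, PGD, RPIA, TKT, TALDO1 and ME1 were lowest in the miR-182-5p library. The ratio to NC was 0.944 for miR-182-5p (0.924 to 0.964) and 0.881 for miR-183-5p (0.863 to 0.900). The antisense gene IDH1-AS1 on the opposite strand had 8, 13 and 17 counts in the same library order.

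**Figure D2:**
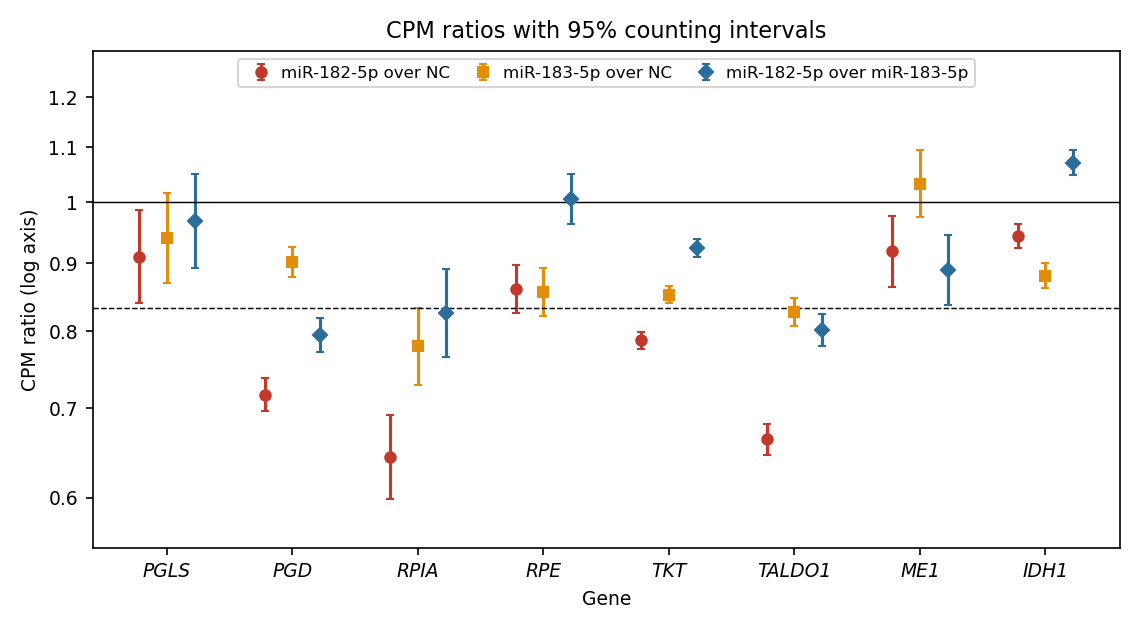
CPM ratios (log axis) of the 8 genes for miR-182-5p over NC (circles), miR-183-5p over NC (squares) and miR-182-5p over miR-183-5p (diamonds), with bars for the 95% counting intervals. The solid line is a ratio of 1 and the dashed line a ratio 1.2-fold lower; RPIA, TALDO1, PGD and TKT lie below the dashed line for miR-182-5p over NC.

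A gene was counted as lower or higher when its CPM ratio was at least 1.2-fold from 1 (0.833 or below, 1.2 or above), a rule of size and not a test. For miR-182-5p against NC, 4 of the 8 genes were lower by this rule, RPIA, TALDO1, PGD and TKT, and 0 were higher. Among all 13267 genes measured in that comparison, which reach an FPKM of 1 in either of the libraries compared, 20.5% were lower and 24.3% higher. The median log2 ratio of the 8 genes was -0.28, beside -0.01 over all measured genes. All 8 ratios were below 1 with intervals that exclude 1, which 38.5% of all measured genes showed as well. Genes whose mean CPM lay within the range of the 8 genes (8002 genes, 19.2 to 533.7 CPM) had a median of -0.05, and 20.6% of them were lower and 14.4% higher by the rule.

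For miR-183-5p against NC, 2 of the 8 genes were lower by the rule, RPIA and TALDO1, and 0 were higher, beside 11.3% lower and 11.5% higher among 12926 measured genes. The median log2 ratio of the 8 genes was -0.20, and that of all measured genes was -0.03. Of the ratios, 6 were below 1 with intervals that exclude 1, as were 37.4% of all measured genes, and the intervals of PGLS and ME1 included 1. In the same expression range, 6.45% of 7994 genes were lower and 4.003% higher by 1.2-fold. The count of 2 depends on the scaling: TALDO1 was within 1.2-fold under 4 other settings, and 4 genes passed when FPKM were rescaled to an equal library sum (TPM). Both comparisons share the NC library, so their likeness is no independent observation.

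For miR-182-5p against miR-183-5p, PGD at 0.795 (0.772 to 0.818), TALDO1 at 0.802 (0.781 to 0.825) and RPIA at 0.826 (0.765 to 0.891) were lower by the rule, and 0 of the 8 were higher. Among 13308 measured genes, 9.7% were lower and 18.4% higher, and of the 8003 in the same expression range 5.998% were lower and 8.72% higher. TKT was at 0.924 (0.910 to 0.939) and ME1 at 0.890 (0.837 to 0.945). In all, 5 of the 8 were below 1 with intervals that exclude 1, beside 29.8% of all measured genes. IDH1 was above 1, at 1.07 (1.05 to 1.09), and the intervals of PGLS and RPE included 1. The median log2 ratio of the 8 genes was -0.14, against 0.02 over all measured genes.

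Under TMM scaling 26.7% of all genes were lower and 20.7% higher for miR-182-5p against NC, and 16.4% lower and 13.7% higher against miR-183-5p. Without the mitochondrially encoded genes in the total, 15.5% were lower and 28.4% higher for miR-182-5p against NC, and 8.32% and 14.1% for miR-183-5p against NC. As TPM, 28.1% were lower and 20.2% higher for miR-182-5p against NC, and 17.7% and 8.91% for miR-183-5p. The background thus moves with the scaling. None of these settings gave any of the 8 genes whose interval excludes 1 a ratio on the other side of 1.

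**Figure D3:**
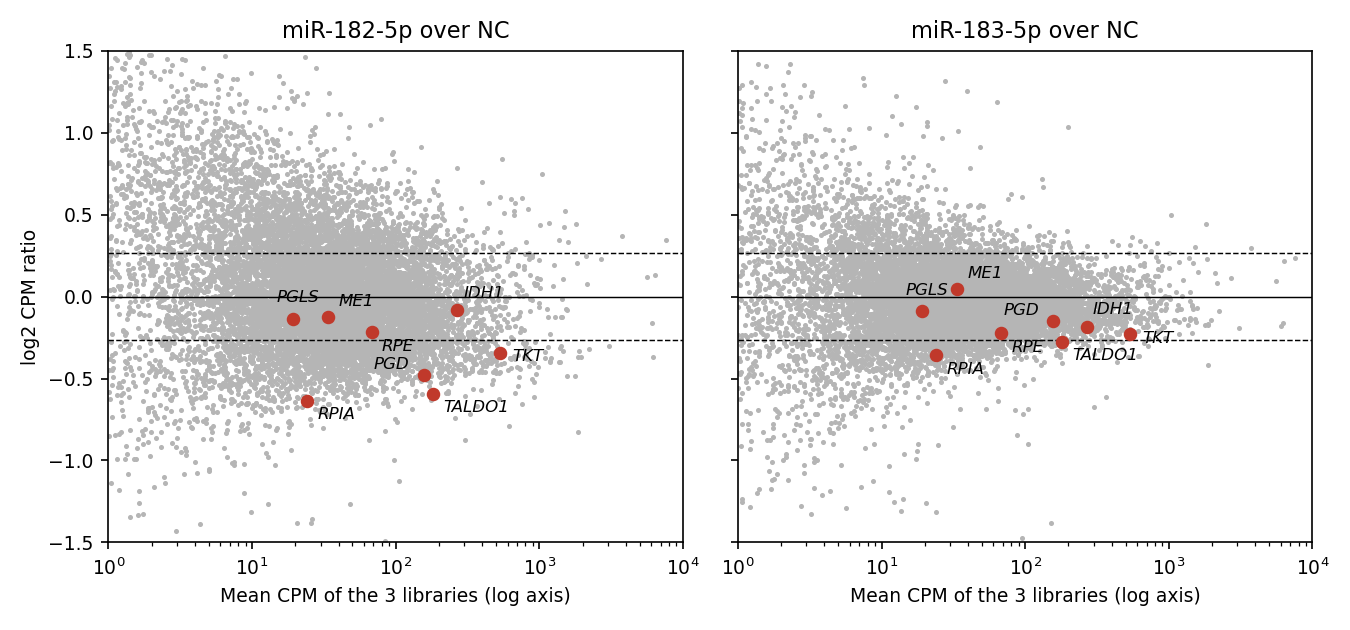
log2 CPM ratio against mean CPM of the 3 libraries (log axis) for measured genes (grey) and the 8 genes (red), for miR-182-5p over NC (left, 12454 genes drawn) and miR-183-5p over NC (right, 12253 drawn); genes beyond the axes are left out. Dashed lines mark 1.2-fold; RPIA, TALDO1, PGD and TKT lie below the lower line on the left, and RPIA and TALDO1 on the right.

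Summed over the 8 genes, CPM were 1152 with miR-182-5p, 1250 with miR-183-5p and 1446 with NC. By branch, the sum ratio of miR-182-5p to NC was 0.737 (0.717 to 0.757) for PGLS and PGD, 0.760 (0.751 to 0.769) for RPIA, RPE, TKT and TALDO1, and 0.941 (0.922 to 0.960) for ME1 and IDH1. For miR-183-5p the sum ratios were 0.906 (0.883 to 0.928), 0.844 (0.835 to 0.854) and 0.897 (0.880 to 0.915) in the same order. For miR-182-5p the intervals of both pathway sums overlapped, and the sum of ME1 and IDH1 lay nearer to NC. For miR-183-5p the intervals of the PGLS and PGD sum and the ME1 and IDH1 sum overlapped, and the non-oxidative sum was the lowest. The first sum is mostly PGD, the second mostly TKT and the third mostly IDH1.

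Other genes around the pathway came from lists of known function. Of all measured genes, 20.5% were lower and 24.3% higher for miR-182-5p against NC, and 11.3% and 11.5% for miR-183-5p. Among genes with an FPKM of at least 5, these shares were 26.1% and 13.6%, and 9.42% and 3.93%. They are the background for every list count below. Of 8 measured further pentose phosphate and ribose phosphate genes, 4 were lower and 1 higher for miR-182-5p, and 2 were lower and 0 higher for miR-183-5p. Their median log2 ratios were -0.26 and -0.12. The lowest was PRPS1, a phosphoribosyl pyrophosphate synthetase that uses ribose 5-phosphate, with 15.7 FPKM with miR-182-5p, 21.0 with miR-183-5p and 24.3 with NC. Its CPM ratio to NC was 0.638 for miR-182-5p and 0.852 for miR-183-5p. PGM2, a phosphopentomutase, had 5.72 FPKM with miR-182-5p, 5.92 with miR-183-5p and 7.39 with NC, with ratios of 0.764 (0.715 to 0.816) and 0.790 (0.741 to 0.842). H6PD, a dehydrogenase of the endoplasmic reticulum, was at 1.21 and 1.11 times NC, and SHPK, a sedoheptulose kinase, at 1.02 and 0.939.

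A further list held NADPH producers, related malic and folate enzymes and NAD kinases. Of its 11 measured genes, 5 were lower and 1 higher for miR-182-5p, and 0 were lower and 0 higher for miR-183-5p. Listing does not show that an enzyme makes NADPH in these cells, which was not tested. Mitochondrial malic enzyme ME2 was at 0.717 and 0.902 times NC in the miR-182-5p and miR-183-5p libraries, and glutamate dehydrogenase GLUD1, which overlaps another gene on the opposite strand, at 0.726 and 0.841. The folate cycle enzyme MTHFD2L was at 1.22 and 1.07, and the malic enzyme ME3 at 1.13 and 1.02. The mitochondrial relative of IDH1, IDH2, had 38.7 FPKM with miR-182-5p, 39.7 with miR-183-5p and 38.6 with NC.

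Genes that use NADPH were divided. Of 13 measured, 5 were lower and 1 higher for miR-182-5p, and 3 were lower and 0 higher for miR-183-5p. Carbonyl reductase CBR1 was at 0.670 and 0.785 times NC and the quinone reductase NQO1 at 0.677 and 0.807. Fatty acid synthase FASN was at 1.19 and 1.09, and cytochrome P450 reductase POR, which overlaps TMEM120A on the opposite strand, at 1.205 and 1.06.

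In glycolysis around the branch point, 5 of 12 measured genes were lower and 1 higher for miR-182-5p, and 2 were lower and 0 higher for miR-183-5p. The fructose-bisphosphatase TIGAR, which favours flow into the pentose phosphate pathway, was at 0.691 and 0.724 times NC. GAPDH was at 0.716 and 0.887, the hexokinase HK1 at 0.955 and 0.966, and the hypoxia-inducible kinase PFKFB4 at 1.67 and 0.797. Of 12 enzymes and carriers around citrate, isocitrate and malate, 7 were lower for miR-182-5p and 0 for miR-183-5p, with 0 higher for either. Some of them use these metabolites rather than supply them. The aspartate aminotransferases GOT2 (0.701 and 0.898) and GOT1 (0.757 and 0.982) were the lowest for miR-182-5p, and the citrate carrier SLC25A1 (0.944 and 0.932) and ACLY (0.935 and 0.958) the highest.

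Genes known to be regulated by NRF2, listed with NFE2L2 and its inhibitor KEAP1 and without the 8 genes, were lower in larger numbers. Of 16 measured, 15 were lower and 0 higher for miR-182-5p, and 11 lower and 0 higher for miR-183-5p, with median log2 ratios of -0.50 and -0.36. Part of this list was assembled with its differences in these libraries known, so the counts are a description. The aldo-keto reductases AKR1C1 (0.458 and 0.535 times NC) and AKR1C3 (0.501 and 0.608) were lowest, and share near-identical relatives. NFE2L2 itself, which overlaps other genes, was at 0.833 (0.805 to 0.861) and 0.867 (0.839 to 0.895), and the cystine carrier SLC7A11 at 0.959 and 0.869. The inhibitor KEAP1 was at 0.753 (0.715 to 0.792) and 0.792 (0.754 to 0.832). Both NFE2L2, which lies at the limit of the rule, and KEAP1 are within the 15 lower genes for miR-182-5p.

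**Figure D4:**
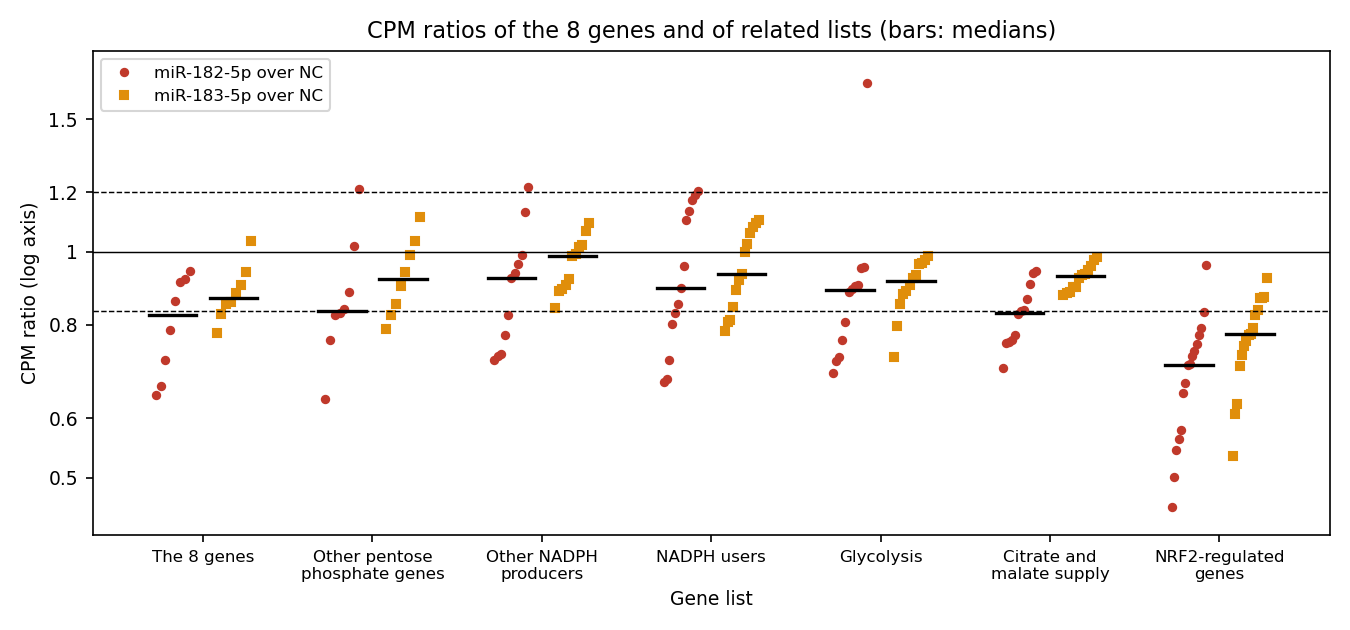
CPM ratios (log axis) of the measured genes of each list for miR-182-5p over NC (circles) and miR-183-5p over NC (squares); each point is 1 gene, ordered by value, bars are medians and dashed lines mark 1.2-fold. The 8 genes have median ratios of 0.823 and 0.869. The list labelled NRF2-regulated genes, which includes NFE2L2 and KEAP1, has 0.708 and 0.777.

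Because several of the 8 genes are known NRF2 targets, the core of the antioxidant response element, TGACNNNGC, was searched on both strands in RefSeq promoter windows (GRCh38.p14, 250 bases before to 50 after the start). All 8 genes matched by symbol, with 9 windows, as IDH1 has 2. The motif was found in windows of 4 genes, ME1, IDH1, PGD and RPE, and not in those of PGLS, RPIA, TKT and TALDO1. By window, 4 of the 9 held it, beside 13.3% of 35116 promoter windows, which were not limited to measured genes. Whether the motif has a part in any difference between the libraries was not tested. Nothing about the factor follows from the matches, since its elements may lie elsewhere. The matches are shown in the direction of transcription with the motif in capitals, at chr6:83431180-83431188 and chr6:83431032-83431040 (ME1), chr2:208255206-208255214 (IDH1), chr1:10398863-10398871 (PGD) and chr2:210002487-210002495 (RPE). ME1 and IDH1 are on the minus strand, PGD and RPE on the plus strand, and the second ME1 match and the PGD match read TGACNNNGC on the other strand.
ME1 first: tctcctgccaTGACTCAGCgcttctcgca
ME1 second: gctgcagtcaGCACCGTCAccccagcagc
IDH1: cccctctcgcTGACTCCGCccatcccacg
PGD: cctcgccgggGCAATGTCAtctaggtgct
RPE: ggcggacggcTGACAGCGCcccaccccag

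Of 4365 other named genes with at least 50 CPM in the NC library, the 6 nearest to the median pair of log2 ratios (-0.28 and -0.20) were MEPCE, CAPN1, HDAC3, DCUN1D5, ATG101 and TOLLIP. Their Euclidean distances over the 2 ratios, computed from 3 libraries, ranged from 0.0041 (MEPCE) to 0.012 (TOLLIP).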

How the data were processed

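Gene expression was read from 1 table with 3 libraries. Per the file headers, it holds gene counts and FPKM, both made by the authors. Whole-number counts were deposited as counted, and no formula is stated for the deposited FPKM. The submitters' processing notes name cutadapt 1.9 and FastQC and give the build GRCm38, a mouse assembly. All 30923 gene identifiers are human Ensembl identifiers, and start and end of the 8 genes lie within 336 bases of GENCODE 29 (GRCh38). The sources used here do not give the aligner, the counting program, its use of strand or the annotation release.

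Counts were scaled to library totals (CPM). Ratios of CPM have exact 95% intervals (Clopper-Pearson, given the summed counts of both libraries). These cover counting error only. They treat reads as independent molecules, which reads are not, so they may be too narrow even for that error. The size rule was 1.2-fold, over genes that reach an FPKM of 1 in either of the libraries compared. Lists were counted over genes with this FPKM in any library. The procedure was tested on simulated data. Alternatives used TMM factors (edgeR 4.0.16), median-of-ratios factors, totals without mitochondrially encoded genes, FPKM plus 1 or 0.1, TPM, other fold limits and filters. The 8 genes and the lists were chosen with earlier results of these data known. From each other list the text names the 2 lowest and the 2 highest measured genes for miR-182-5p over NC. IDH2, KRT19, EPCAM and KEAP1 were added after their values were seen. ALB and PTPRC were named outside this rule, as neither reached an FPKM of 1 in any library. Genes with the nearest pattern were ranked by Euclidean distance among genes with a symbol. Some listed genes were not analysed here (TKTL2 and 7 markers), and 1 listed gene is not reported here. Analyses used Python 3.11.15, scipy 1.17.1 and matplotlib 3.10.9.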

Additional observations from a re-analysis of the deposited data

How the results depend on the processing

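No paired analysis was possible because each group has 1 library, and for the same reason no replicate was left out. The 4 genes counted as lower for miR-182-5p against NC were 2 with a 1.5-fold limit. They were 5 under TMM scaling and after rescaling to TPM, where RPE joined. The 2 counted as lower for miR-183-5p against NC were 1 with median-of-ratios factors, without mitochondrially encoded genes, and with FPKM plus 1 or plus 0.1. They were 4 after rescaling to TPM, 0 with a 1.5-fold limit and 0 when the whole counting interval had to lie beyond 1.2-fold. The 3 counted as lower for miR-182-5p against miR-183-5p were 0 with a 1.5-fold limit. They were 2 with FPKM plus 1, and 2 when the whole counting interval had to lie beyond 1.2-fold. TMM factors, median-of-ratios factors and totals without mitochondrially encoded genes each multiply all CPM ratios of a comparison by a common factor. Adding 1 or 0.1 to FPKM does not, and draws the ratios of genes with low FPKM most toward 1. Of 30 recomputed counts of lower genes, 9 moved by over 1.5 times, 7 of them among the 10 for miR-183-5p against NC, and the 30 counts of higher genes were 0 throughout. Filters on low values remove none of the 8 genes, but they move the background. With an FPKM of at least 5, 26.1% of all genes were lower and 13.6% higher for miR-182-5p against NC. The shares were 9.42% and 3.93% for miR-183-5p against NC, and 8.37% and 8.61% for miR-182-5p against miR-183-5p. Of 144 recomputed ratios of the 8 genes, 113 stayed within their counting intervals and 0 of those whose interval excludes 1 changed sides. Depth limits PGLS and RPIA most, with the fewest counts and widest intervals.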
